A study of Mus musculus with 234 samples.

Results

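The comparison set bright cardiomyocytes (CMs) of 2 homozygous mice, M25 and M116, against CMs of 2 control mice, M26 and M73. The members were the cells whose genotype label is homo_bright, 80 cells, or control, 33 cells, among 234 cells of 5 mice in all. Cells with at least 1000 genes detected were kept, which left 76 bright CMs (20 from M25 and 56 from M116) and 28 control CMs (20 from M26 and 8 from M73). The homozygous mice carried PGKcre:BAG3P209L_homo, a human BAG3 with the P209L variant fused to eGFP. BAG3 is a co-chaperone that sends damaged filament proteins of the sarcomere to autophagy. The transgene came from 1 embryonic stem cell clone, lay in the Rosa26 locus behind the CAG promoter and a floxed stop, and was freed of the stop broadly by PGK-Cre. Homozygous mice had both floxed alleles, of which 1 or both can have lost the stop. Controls were labelled C57BL/6, whereas the study describes controls as siblings of wild-type, PGK-Cre or floxed transgene genotype on a mixed background, and which of these M26 and M73 were is not known here. The mice were 2 weeks old. CMs were isolated from ventricles after perfusion on a Langendorff apparatus, picked by hand, and judged bright by their fluorescence, so that bright CMs are those picked as strongly fluorescent and no dim CM of the same hearts enters this comparison.

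In the first weeks after birth mouse CMs mature. Fetal protein isoforms of the sarcomere give way to adult ones, the cells leave the cell cycle, and energy supply moves from glycolysis towards oxidation of fatty acids, with growth of the mitochondria under the coactivator PGC-1alpha (Ppargc1a). Muscle isoforms also replace ubiquitous ones in the respiratory chain, in the ribosome (Rpl3l for Rpl3) and among the elongation factors (Eef1a2 for Eef1a1). CMs under load or stress turn part of the fetal program on again and secrete peptides such as the natriuretic peptides, whose genes are Nppa and Nppb.

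Counts were summed over the kept cells of each mouse, which gave 18659329 counts for bright M25, 40502883 for bright M116, 19579664 for control M26 and 4096122 for control M73. Single cells held between 4259 and 1392253 counts. M73, with 8 cells and the smallest sum, was the least precise of the 4. All 10 ventricular CM markers were detected in every sum, with a summed level between 88732 and 104836 CPM (counts scaled to a common library total). Markers of macrophages stayed at or below 14.2 CPM. Fibroblast markers reached 2719 CPM in bright M25 and lay between 33.7 and 161 CPM in the other sums. Among the single cells, 2 wells of bright M25 held 646 and 2158 CPM of the CM markers, where each other cell held at least 51347 CPM. The first of these held 52744 CPM of fibroblast markers, 4.81% mitochondrial counts and 867 CPM of hBAG, the feature of the transgene's human BAG3. It stayed in the bright group because its label puts it there. The other held 1117 genes and 22.4% mitochondrial counts. Results that rest on these 2 wells are given with and without them, an alternative chosen after seeing the data. M25 and M26 shared 1 plate series, and M116 and M73 the other, so that each series holds a bright and a control mouse. M25 and M26 were on 1 plate, but M73 was on 1 plate of its series and M116 on 2 others, so that plate and group cannot be told apart in M116 minus M73, nor in that share of the fit with plate series as a block.

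**Figure D1:**
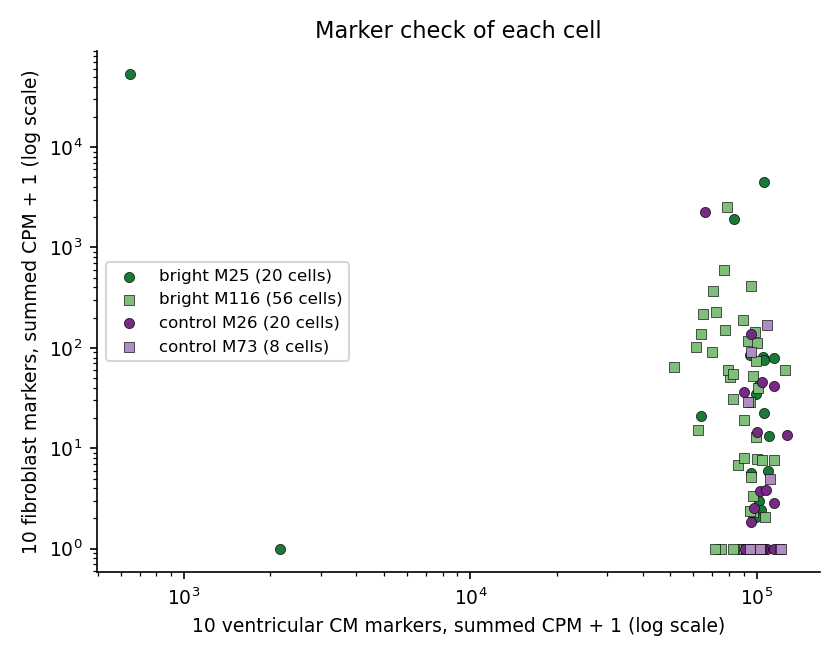
Summed level of 10 ventricular CM markers (x axis, CPM + 1, log scale) and of 10 fibroblast markers (y axis, CPM + 1, log scale) in each kept cell, by mouse. The 2 cells of bright M25 on the left hold 646 and 2158 CPM of CM markers, and all other cells at least 51347 CPM.

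Of 12200 genes with enough counts to be tested, 2 (0.0164%) passed the quasi-likelihood test of edgeR at an adjusted p of 0.05, and both were features of the transgene. hBAG lay at 274 and 203 normalized CPM (CPM corrected with TMM factors) in bright M25 and M116 against 0.378 and 0.581 in control M26 and M73, and it rose (log2 fold change 9.09, standard error 0.55, adjusted p = 0.013, edgeR). BAG-eGFP lay at 205 and 195 normalized CPM against 1 count in M26 and none in M73 (adjusted p = 0.013, edgeR), which puts the ratio of CPM at 5291 with an exact counting interval of 949 to 208992. Of the kept cells, 76 of 76 bright CMs and 1 of 28 control CMs had a BAG-eGFP count. Mouse Bag3 itself lay at 182 and 170 normalized CPM in bright CMs against 261 and 241 in control CMs (log2 fold change -0.51, standard error 0.29, adjusted p = 0.88, edgeR). No gene beyond the transgene passed the test, whereas DESeq2 passed 66 genes with higher values (0.541%) and 28 with lower values (0.23%). At an unadjusted p under 0.05 were 571 genes with higher values in bright CMs (4.68% of those tested) and 220 with lower values (1.8%). In 24.4% of the genes tested the groups did not overlap with bright CMs higher, and in 14.7% with bright CMs lower. Many of these gaps rested on 1 cell. Each gene was also read with its highest cell left out of each mouse in turn, an alternative chosen after seeing the data, and then 13.2% of genes stayed without overlap as higher and 4.33% as lower. The median log2 fold change of all genes was 0.11, and without TMM factors, on library size alone, it was 0.42, so gene lists are read against this shift.

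All genes named from here on missed the adjusted threshold, and their values are given with that limit. Several genes outside the transgene were separated between the groups. Ankrd1, a stretch-responsive protein of the titin complex, lay at 1218 and 1207 normalized CPM in bright CMs against 194 and 232 in control CMs (log2 fold change 2.51, standard error 0.28, adjusted p = 0.28, edgeR). Ppargc1a lay at 222 and 220 normalized CPM against 914 and 1022 (log2 fold change -2.13, standard error 0.28, adjusted p = 0.50, edgeR). The groups did not overlap in either gene, and the mice of a group lay close together. With plate series as a block both passed the threshold (adjusted p = 0.017 for Ankrd1 and 0.047 for Ppargc1a, edgeR), as did 5 other features, namely both transgene features, Gm13394, Postn and Mt1. In that fit 0.041% of genes passed with higher and 0.0164% with lower values. Postn, the matrix protein periostin made by activated fibroblasts, did not pass in that fit without the 2 wells low in CM markers. Without these wells and without the block 3 features passed (0.0247%), the third being Gm13394. With the block 13 features passed, 9 with higher values (0.074%) and 4 with lower values (0.0329%), with Tnni1, Nppa, Nppb, Lrtm1, Atf3, Rpl3l and Angptl4 among them.

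Mt1, the metal-binding protein metallothionein 1, lay at 307 and 130 normalized CPM in bright CMs against 1204 and 975 in control CMs (log2 fold change -2.32, standard error 0.46, adjusted p = 0.66, edgeR). The median bright CM held 349 CPM in M25 and 114 CPM in M116, where the median control CM held 1190 CPM in M26 and 794 CPM in M73. Slc38a3, an amino acid transporter that carries glutamine, lay at 21.3 and 22.0 normalized CPM against 72.8 and 122.6 (log2 fold change -2.17, standard error 0.46, adjusted p = 0.66, edgeR). Gm15543, a noncoding RNA annotated as antisense in GENCODE vM21, lay at 30.6 and 28.8 against 135 and 87.8 normalized CPM. In each of these the groups did not overlap. Gm13394 lay at 71.9 and 148 normalized CPM in bright CMs against 0.378 and 0.291 in control CMs (log2 fold change 8.25, standard error 0.74, adjusted p = 0.095, edgeR). It is annotated as a processed pseudogene, and 96.8% of its stretches of 31 bases also occur in Gapdh transcripts, so its reads and those of Gapdh copies cannot be told apart with certainty. Gapdh itself lay at 1159 and 951 normalized CPM in bright CMs against 1879 and 1036 in control CMs.

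The promoters of 4 of the genes described here are shown because each carries a short motif tied to one of these gene groups. The sequences run from 250 bases before to 50 bases after the start in RefSeq (GRCm38.p6), 5′ to 3′ on the gene's strand, and capitals mark the motif on either strand. They are the MCAT element CATTCCT bound by TEAD factors in Ankrd1, the half-site AAGGTCA of estrogen-related receptors, partners of PGC-1alpha, in Perm1 and Atp5k, and the element TGATGNAA of ATF4 and its relatives in Atf3.
Ankrd1 (chr19:36119795-36120094, minus strand): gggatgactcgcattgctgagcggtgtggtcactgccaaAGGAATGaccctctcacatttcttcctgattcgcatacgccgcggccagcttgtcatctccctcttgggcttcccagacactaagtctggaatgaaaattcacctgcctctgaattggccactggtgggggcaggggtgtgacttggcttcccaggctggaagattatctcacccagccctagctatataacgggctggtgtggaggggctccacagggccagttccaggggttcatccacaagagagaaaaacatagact
Perm1 (chr4:156215677-156215976, plus strand): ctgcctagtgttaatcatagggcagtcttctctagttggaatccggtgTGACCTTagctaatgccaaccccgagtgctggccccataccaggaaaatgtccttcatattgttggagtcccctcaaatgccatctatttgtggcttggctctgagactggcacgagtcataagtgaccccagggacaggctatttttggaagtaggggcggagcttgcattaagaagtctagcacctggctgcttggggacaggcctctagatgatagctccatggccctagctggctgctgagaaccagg
Atp5k (chr5:108434350-108434649, minus strand): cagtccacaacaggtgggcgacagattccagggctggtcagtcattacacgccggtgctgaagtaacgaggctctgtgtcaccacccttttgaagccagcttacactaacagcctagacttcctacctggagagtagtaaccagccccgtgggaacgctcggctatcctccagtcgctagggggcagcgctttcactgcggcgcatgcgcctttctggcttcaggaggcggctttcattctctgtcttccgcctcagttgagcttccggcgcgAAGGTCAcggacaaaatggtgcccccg
Atf3 (chr1:191183284-191183583, minus strand): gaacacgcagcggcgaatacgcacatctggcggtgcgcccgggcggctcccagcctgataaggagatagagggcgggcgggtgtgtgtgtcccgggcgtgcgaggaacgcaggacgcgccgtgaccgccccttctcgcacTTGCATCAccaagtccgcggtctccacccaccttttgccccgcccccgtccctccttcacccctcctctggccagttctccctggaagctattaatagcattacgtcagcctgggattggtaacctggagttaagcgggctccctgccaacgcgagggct
The MCAT letters occur in 6.15% of the promoters of 27025 genes and in 5 of 19 early sarcomere genes with a promoter sequence. The half-site of estrogen-related receptors occurs in 5.38% of all genes and in 8 of 65 nuclear respiratory chain genes, and the ATF4 element in 4.51% of all genes and in 5 of 28 genes of the integrated stress response. The motifs were not limited to these groups: the half-site occurs in 2 of 19 early sarcomere genes (10.5%), and the MCAT letters in 5 of 34 adult sarcomere genes (14.7%). These matches describe letters and were not tested.

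For maturation, 16 pairs of an early and a late isoform were compared by the log2 ratio of their counts within each sum, which no scaling between samples can move. The ratio of early to late isoform was higher in bright CMs in 13 of the 16 pairs, with both bright mice above both control mice in 11 pairs and below both in 0 pairs. Without the 2 wells low in CM markers it was higher in 12 pairs, and the difference of Ckb to Ckm, the creatine kinases of brain and muscle type, went from 0.61 to -0.02. The median difference was 1.09 on the log2 scale, a 2.14-fold shift, and it was 0.44 between M25 and M26 and 1.89 between M116 and M73. A two-sided exact permutation test of the median ratio gave p = 0.33, the smallest p that 2 mice against 2 allow. The difference was largest in the troponin I pair. The log2 ratio of Tnni1, the slow skeletal troponin I of the fetal heart, to the cardiac Tnni3 was -5.95 and -4.22 in bright M25 and M116 against -9.99 and -12.05 in control M26 and M73, a difference of 5.93.

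Tnni1 lay at 142 and 335 normalized CPM in bright CMs against 13.1 and 3.20 in control CMs (log2 fold change 4.81, standard error 0.81, adjusted p = 0.66, edgeR). Tnni3 lay at 8780 and 6238 normalized CPM against 13333 and 14132 (log2 fold change -0.87, standard error 0.30, adjusted p = 0.66, edgeR). Tnni1 was widespread among bright CMs. With each cell thinned to 100000 reads, which left out 4 shallower cells of M116, 62 of 72 bright CMs had a Tnni1 read (86.1%; 70 of 76 kept cells without thinning) and 6 of 28 control CMs (21.4%; 11 of 28 without thinning), although 1 cell held 50.1% of the Tnni1 counts of M25. The calsequestrin pair, the calcium store of the sarcoplasmic reticulum, differed by 4.20, from -9.04 in the mean of the controls to -4.84 in bright CMs for Casq1 to Casq2. Casq1 counts were sparse: they came from 34 of 76 bright CMs, with 60.9% of those of M25 in 1 cell, and from 6 of 28 control CMs. Control M26 held 120 Casq1 counts, 59.2% of them in 1 cell, and M73 held 1 count. The size of this difference therefore depends on the 0.5 added to each count. The myosin pairs differed less. Myh7 to Myh6 differed by 1.05, with 0.08 between M25 and M26 and 2.01 between M116 and M73, and Myl4 to Myl3 differed by 1.92. Myl4 had 4 counts in M73, all from 1 cell. Mhrt, an antisense RNA of the Myh7 locus, lay at 21.1 and 14.3 CPM in bright CMs against 38.9 and 53.5 CPM in control CMs, and reads of such partners cannot be told apart without strand. Acta1 to Actc1 and Myl7 to Myl2 had opposite signs in the plate series (-2.53 and 6.87 for the actin pair), and 50.4% of the Acta1 counts of M116 came from 1 cell. Myl7 had no count in bright M25 and control M73, and all 40 of its counts in bright M116 came from 1 cell, so the size of that pair's difference, -1.82, depends on the 0.5 added to each count.

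**Figure D2:**
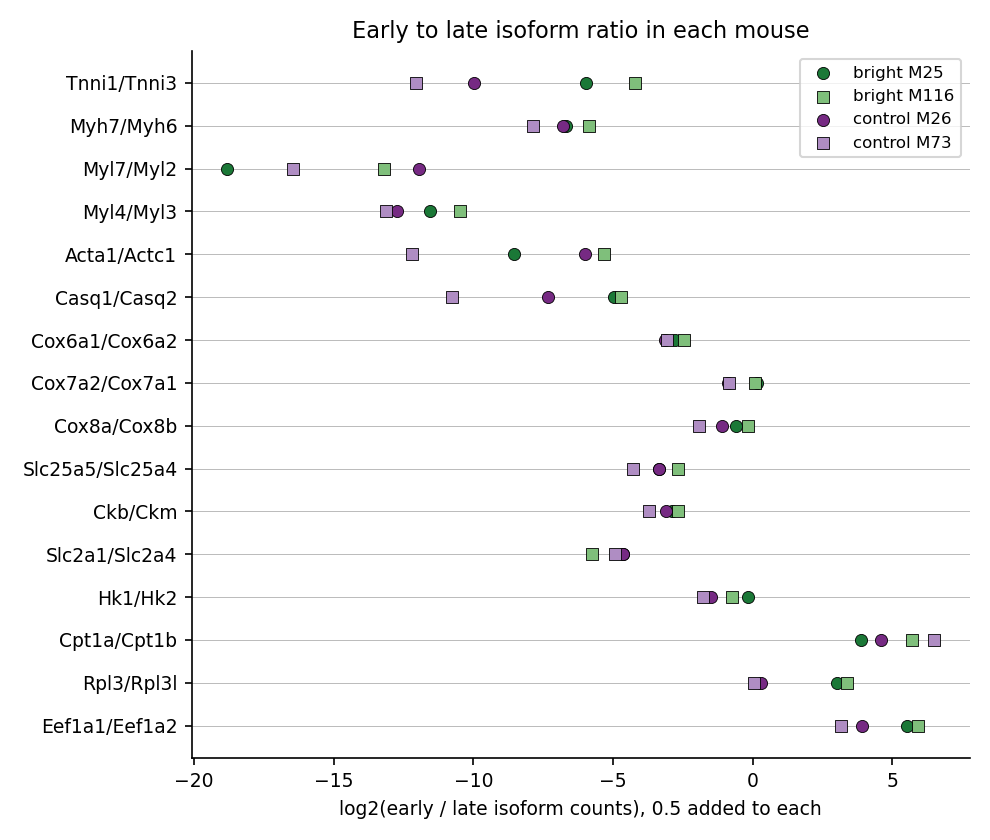
Log2 ratio of early to late isoform counts (x axis, 0.5 added to each count) for 16 isoform pairs (y axis) in each mouse. Bright M25 and M116 lie to the right of control M26 and M73 in 11 pairs, with the widest gap, 5.93 between group means, for Tnni1 to Tnni3.

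Among 21 tested genes of the early sarcomere and fetal list, 14 had a log2 fold change above 0 (66.7%, against 54.2% of all genes), and the median was 0.50, against 0.11 over all genes. Both bright mice were above both controls in 9 genes (42.9%, against 24.4% of all genes) and below both in 2 (9.52%, against 14.7%). With 1 cell left out 6 of the 9 stayed above (28.6%, against 13.2% of all genes), Myl4, Xirp2 and Enah being the others. Besides Ankrd1, Tnni1 and Nppa, these 9 genes were Nppb, Xirp2, Igf2bp3, Myl4, Actn1 and Enah. Xirp2, an actin-binding protein of the intercalated disc, lay at 643 and 715 normalized CPM against 305 and 413, but 1 cell held 70.3% of its counts in M25 and another 39.5% in M116. Other members lay the other way or overlapped. Tnnt1, the slow skeletal troponin T, lay at 23.4 and 20.8 normalized CPM against 37.03 and 47.9, where M73 lay at 20.4 without 1 cell, and Csrp3 and Des, which anchor the Z-disc, had overlapping groups.

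In the adult sarcomere and maturation list, 36 of 40 tested genes had a log2 fold change under 0, with a median of -0.46, while 45.8% of all genes were under 0. On library size alone 23 of the 40 genes were under 0 (32.4% of all genes), with a median of -0.14 against 0.42 over all genes, so that it lay -0.57 from the median of all genes with TMM and -0.56 on library size. Both bright mice lay below both controls in 23 genes, 57.5% of the list against 14.7% of all genes, and above both in 1 gene, Synpo2l. With 1 cell left out 16 genes stayed below (40%, against 4.33% of all genes), and Synpo2l no longer lay above. The sarcomere genes with no overlap included Ttn, at 15335 and 18377 normalized CPM against 19343 and 34980, Tnnt2, at 7286 and 5302 against 10256 and 10486, and Tpm1, at 8642 and 8541 against 12745 and 10471. Cardiac alpha-actin Actc1 overlapped, with 19078 and 18331 normalized CPM in bright CMs between the 14215 of M73 and the 23239 of M26. Without the 2 wells low in CM markers the list median was -0.40. The 10 ventricular CM markers, the check on cell identity, had a median of -0.66, all 10 under 0, and -0.61 without the 2 wells.

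Of 37 tested calcium handling and ion channel genes, 16 had both bright mice below both controls (43.2%, against 14.7% of all genes) and 9 had both above (24.3%, near the 24.4% of all genes), and the median was -0.17 (0.16 on library size alone). Ryr2, the calcium release channel of the sarcoplasmic reticulum, lay at 995 and 1087 normalized CPM in bright CMs against 1674 and 3505 in control CMs (log2 fold change -1.31, standard error 0.40, adjusted p = 0.66, edgeR). Kcnj2, the inward rectifier that sets the resting potential, lay at 17.8 and 7.04 normalized CPM against 31.4 and 109. Kcnd2, a transient outward potassium channel, lay at 10.9 and 13.3 against 39.7 and 42.1. The 2 control mice differed more than 2-fold in Ryr2 and Kcnj2, where the groups did not overlap with 1 cell left out either. For Kcnd2, 1 cell held 90.3% of the counts of M73, which lay at 4.78 normalized CPM without it, below both bright mice.

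Cell cycle genes had a median of 1.18 over 24 tested genes, but the 2 plate series did not share it. The median was -0.19 between M25 and M26 and 2.30 between M116 and M73, and 13 of 37 listed genes, Mki67 and Top2a among them, had too few counts to be tested. The 3 genes with the smallest unadjusted p were regulators of growth arrest. Btg2, an antiproliferative gene that is also an immediate-early gene, lay at 160 and 323 normalized CPM against 75.4 and 42.7. Cdkn1a, which encodes the cell cycle inhibitor p21, lay at 91.6 and 90.6 against 283 and 188, and Gadd45g, a growth arrest gene, at 133 and 99.9 against 269 and 264. Both were lower in each bright mouse than in each control mouse, and the log2 fold changes were -1.37 (standard error 0.35, adjusted p = 0.66, edgeR) and -1.20 (standard error 0.32, adjusted p = 0.66, edgeR).

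For cardiac transcription factors the median over 25 genes was 0.27, with 6 genes above both controls (24%) and 3 below both (12%), near the 24.4% and 14.7% of all genes. Lbh, a transcriptional cofactor of the developing heart, lay at 267 and 394 normalized CPM against 141 and 173, and Hopx, a homeodomain protein without DNA binding, at 26.7 and 27.6 against 49.7 and 79.0. Irx5, a homeobox factor of the repolarization gradient, was rare, at 8.42 and 3.01 normalized CPM against 1.46 and 0.291.

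**Figure D3:**
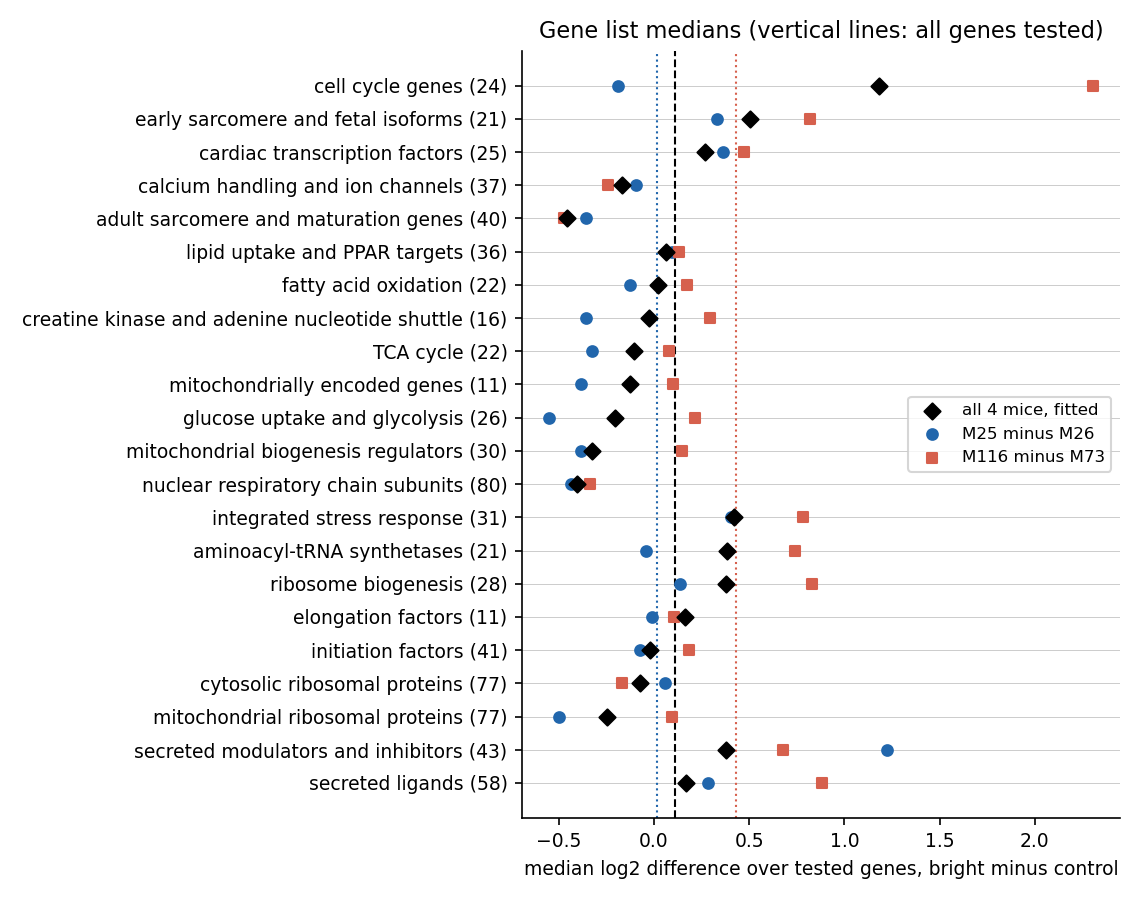
Median log2 difference between bright and control CMs (x axis) over the tested genes of 22 lists (y axis, number of genes in parentheses), fitted over all mice (diamonds) and within each plate series (circles M25 minus M26, squares M116 minus M73). Vertical lines give the medians over all 12200 genes, 0.11 in the fit, 0.01 for M25 minus M26 and 0.43 for M116 minus M73. Adult sarcomere genes, nuclear respiratory chain subunits and calcium handling genes lie left of all lines in both series. Other lists, such as mitochondrial ribosomal proteins, the TCA cycle and glycolysis, lie left of each series' own line.

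In metabolism, the list median of the nuclear respiratory chain genes lay below that of all genes in both plate series, as did the medians of the TCA cycle and of glycolysis. Of 80 tested subunits, 72 had a log2 fold change under 0, and the median was -0.40. Both bright mice lay below both controls in 38 subunits (47.5% of the list, against 14.7% of all genes) and above both in 0, and 25 stayed below with 1 cell left out (31.2%, against 4.33%). The median within the plate series was -0.44 for M25 minus M26 and -0.34 for M116 minus M73, and without the 2 wells the fitted median was -0.35. On library size alone 53 of 80 were under 0 and the median was -0.09, against 0.42 over all genes. The lowest values were in the muscle isoform Cox7a1 of cytochrome oxidase, at 972 and 740 normalized CPM in bright CMs against 2225 and 1773 in control CMs (log2 fold change -1.22, standard error 0.29, adjusted p = 0.66, edgeR). Cox8b, another muscle isoform of the same complex, lay at 763 and 544 against 1252 and 1269, and Atp5k, a small subunit of the ATP synthase, at 481 and 360 against 720 and 899.

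Among the isoform pairs of cytochrome oxidase, Cox7a2 to Cox7a1 had the least spread between mice. The log2 ratio of the ubiquitous Cox7a2 to Cox7a1 was 0.15 and 0.08 in bright CMs against -0.88 and -0.85 in control CMs, a difference of 0.98 where the SD between mice was 0.05 in bright and 0.02 in control CMs. Cox8a to Cox8b differed by 1.14 and Cox6a1 to Cox6a2 by 0.47. In these 3 pairs the ubiquitous isoforms themselves had log2 fold changes of -0.24, 0.12 and -0.13, in the order Cox7a2, Cox8a and Cox6a1, and those of Cox7a2 and Cox6a1 turned to 0.07 and 0.18 on library size alone. Of 11 mitochondrially encoded genes, 4 lay below both controls (36.4%, against 14.7% of all genes) and 0 above, with a median of -0.13. ND2, a complex I subunit, lay at 10194 and 8628 normalized CPM against 15281 and 14457.

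Among 30 regulators of mitochondrial biogenesis the median was -0.32, with 5 genes below (16.7%) and 6 above both controls (20%), near the shares of all genes, and it was -0.38 in M25 minus M26 and 0.15 in M116 minus M73. Ppargc1a was the leading gene. Its median over single cells was 215 CPM in bright M25 and 229 CPM in bright M116, against 686 CPM in M26 and 678 CPM in M73. Lpin1, a phosphatidate phosphatase that also acts with PGC-1alpha, lay at 51.9 and 45.7 normalized CPM against 231 and 104, and Perm1, a muscle regulator induced by PGC-1alpha, at 122 and 89.6 against 219 and 199. The groups overlapped for the receptors Esrra and Ppara, which work with PGC-1alpha. Esrra lay at 11.6 and 14.2 normalized CPM against 16.3 and 12.5, and Ppara at 19.4 and 5.34 against 30.6 and 16.9.

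Several list medians under 0 in the metabolism and translation lists turned sign on library size alone, at 0.18 for mitochondrially encoded genes, 0.21 for the TCA cycle, 0.11 for glycolysis, 0.26 for cytosolic and 0.05 for mitochondrial ribosomal proteins, all under the 0.42 of all genes.

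Fatty acid oxidation and the TCA cycle had medians of 0.02 and -0.10 over 22 genes each. The median of the TCA cycle was -0.33 in M25 minus M26, where that of the respiratory chain was -0.44, and 0.08 in M116 minus M73, and the difference between these lists was not tested. In fatty acid oxidation 6 genes lay below (27.3%, against 14.7% of all genes) and 2 above both controls (9.09%, against 24.4%). Etfb, a subunit of the electron transfer flavoprotein, lay at 148 and 101 normalized CPM against 227 and 276, and Decr1, a reductase for unsaturated acyl chains, at 497 and 402 against 745 and 704, whereas Hadh, a dehydrogenase of beta-oxidation, lay at 454 and 434 against 316 and 305. Etfb shares 58.2% of its exonic bases with Gm45233 and Mir7051 on the same strand, and Gm45233 held 0 counts. The log2 ratio of Cpt1a, the liver form of carnitine palmitoyltransferase, to Cpt1b was lower in bright CMs by 0.76 in the mean, with overlapping mice, and Cpt1a lay at 20.1 and 30.6 normalized CPM against 15.03 and 13.1. Cpt1b, the muscle carnitine palmitoyltransferase, could not be read: 81.4% of its exonic bases overlap Gm44502 on the same strand, and it lay at or below 1.33 normalized CPM in every mouse, so that this ratio is uncertain too. Ogdh, Fh1 and Idh3b of the TCA cycle lay below both controls by small amounts, with log2 fold changes of -0.44, -0.32 and -0.32 and adjusted p of 0.88, 0.93 and 0.94 (edgeR), and Fh1 turned to 0.01 on library size alone. With 1 cell of M73 left out, Fh1 and Idh3b overlapped.

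Lipid uptake genes and PPAR targets had a median of 0.06 over 36 genes, with 9 above (25%, near the 24.4% of all genes) and 8 below both controls (22.2%, against 14.7%). Angptl4, a secreted inhibitor of lipoprotein lipase, lay at 64.0 and 56.8 normalized CPM in bright CMs against 8.70 and 0.581 in control CMs (log2 fold change 3.62, standard error 1.098, adjusted p = 0.66, edgeR). Plin4, which coats lipid droplets, lay at 37.9 and 30.6 against 108 and 84.8, and Fabp4, a fatty acid binding protein best known from fat cells and endothelial cells, at 93.6 and 68.7 against 179 and 206. Fabp4 rested on few cells. In control M26, 1 cell held 94.4% of its counts, and without it M26 lay at 10.7 normalized CPM, below both bright mice, while 1 cell of bright M25 held 61.1%. The 10 endothelial markers summed to 203 and 184 CPM in bright CMs against 259 and 340 CPM in control CMs, whose part in it was not tested. Glucose uptake and glycolysis had a median of -0.20 over 26 genes, -0.55 in M25 minus M26 and 0.22 in M116 minus M73. Hk2, the insulin-responsive hexokinase of muscle, lay at 74.4 and 90.0 normalized CPM against 246 and 201 (log2 fold change -1.45, standard error 0.33, adjusted p = 0.66, edgeR), while Hk1 lay at 66.7 and 53.7 against 87.1 and 58.7, and the log2 ratio of Hk1 to Hk2 was -0.16 and -0.74 against -1.499 and -1.78. Pgam2 and Pfkl were also below both controls, with log2 fold changes of -0.58 and -0.46, but Pfkl not without 1 cell of M73. The glucose transporter pair Slc2a1 to Slc2a4 was, with Cpt1a to Cpt1b and Myl7 to Myl2, among the 3 pairs with a difference under 0, at -0.41 with overlapping mice. Of 16 genes of the creatine kinase and adenine nucleotide shuttle, 2 lay below both controls (12.5%, near the 14.7% of all genes), Ckmt2, the mitochondrial creatine kinase, at 1177 and 1088 normalized CPM against 2079 and 1402, and Ampd3 at 20.9 and 22.1 against 40.7 and 24.7, and M73 lay at 13.2 without 1 cell. The ratio of Slc25a5 to Slc25a4, the common and the muscle adenine nucleotide translocase, differed by 0.80, with -0.01 between M25 and M26 and overlapping mice.

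**Figure D4:**
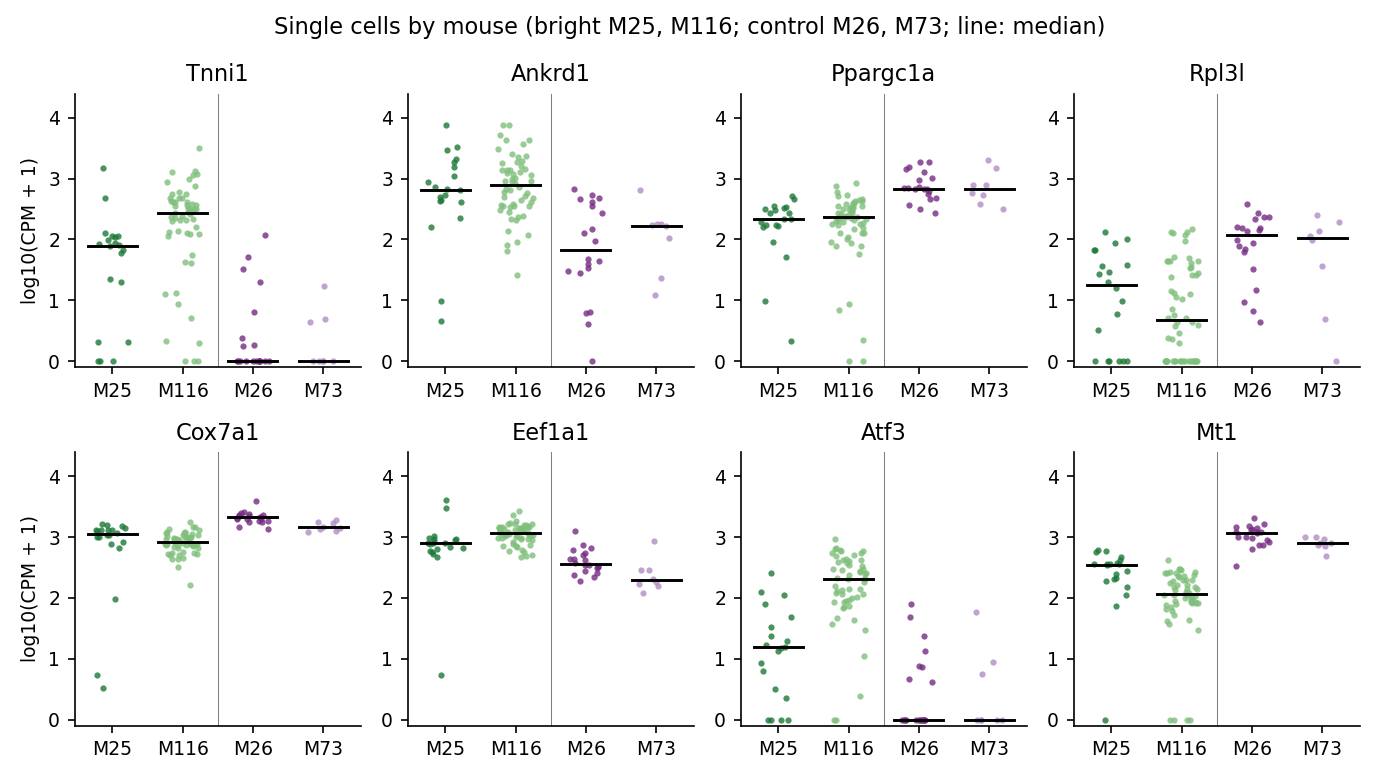
Expression of 8 genes in single cells (y axis, log10 of CPM + 1; points are cells, black lines medians) of bright M25 and M116 and control M26 and M73 (x axis). Median Ppargc1a was 215 and 229 CPM in bright mice against 686 and 678 CPM in control mice, and median Tnni1 78.5 and 276 CPM against 0 CPM in both controls.

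In translation, the ratios of both muscle isoform pairs did not overlap between the groups. With TMM factors, smaller shares of ribosomal proteins than of all genes lay above both controls, a difference that was not tested. Rpl3l, the ribosomal protein of mature striated muscle that can take the place of Rpl3, lay at 29.0 and 22.7 normalized CPM in bright CMs against 135 and 131 in control CMs (log2 fold change -2.36, standard error 0.39, adjusted p = 0.66, edgeR). Rpl3 lay at 236 and 235 against 165 and 136 (log2 fold change 0.65, standard error 0.30, adjusted p = 0.84, edgeR). The log2 ratio of Rpl3 to Rpl3l was 3.03 and 3.37 in bright CMs and 0.29 and 0.05 in control CMs, a difference of 3.03 with an SD of 0.24 in bright and 0.17 in control CMs. Eef1a1, the common form of the factor that brings aminoacyl-tRNA to the ribosome, lay at 936 and 1072 normalized CPM against 479 and 356 (log2 fold change 1.27, standard error 0.29, adjusted p = 0.66, edgeR), and the muscle form Eef1a2 at 20.5 and 17.5 against 31.9 and 39.8. For Eef1a2, 1 cell held 72.3% of the counts of M73, which lay at 12.6 without it, below both bright mice. Their ratio differed by 2.19. Rpl3 and Eef1a1 have processed pseudogenes, with 37.6% and 51.5% of their 31-base stretches found in other genes, so their counts carry that uncertainty, and 0% of those of Rpl3l. Thinned to 100000 reads, 38 of 72 bright CMs (52.8%) and 26 of 28 control CMs (92.9%) had an Rpl3l read, and without thinning 50 of 76 and 27 of 28 had one.

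The 77 tested cytosolic ribosomal proteins had a median of -0.07, against 0.11 over all genes, and of 0.06 in M25 minus M26 and -0.17 in M116 minus M73 (0.01 and 0.43 over all genes), with 18 below (23.4%, against 14.7% of all genes) and 5 above both controls (6.49%, against 24.4%). This depends on scaling: on library size alone 61 of the 77 had a log2 fold change above 0, and 31 with TMM factors. Over all 12200 genes these counts were 8244 and 6614. Rps2 lay at 276 and 255 normalized CPM against 399 and 401, and Rpl21 at 133 and 121 against 167 and 225. Mitochondrial ribosomal proteins had a median of -0.25 over 77 genes, with 22 below (28.6%, against 14.7% of all genes) and 3 above both controls (3.9%, against 24.4%), of which 6 stayed below with 1 cell left out (7.79%, against 4.33% of all genes), and the median was -0.50 in M25 minus M26 and 0.09 in M116 minus M73. Mrps18a lay at 103 and 100.5 normalized CPM against 191 and 158, Mrpl1 at 45.1 and 42.5 against 62.7 and 118, and Mrps11 at 25.2 and 28.8 against 37.7 and 93.6. Without 1 cell, which held 94.1% of the Mrpl1 counts of M73 and 72.7% of its Mrps11 counts, Mrpl1 lay at 8.19 there, below both bright mice, and Mrps11 at 29.8. Initiation factors were centred on -0.02 over 41 genes. Eif4a3, a helicase of the exon junction complex, lay at 116.4 and 65.5 against 37.6 and 46.2, Eif5b at 61.8 and 50.7 against 84.9 and 105, and Eif2b1 at 47.8 and 51.5 against 31.9 and 24.1. Eef1d, an exchange factor for Eef1a, lay at 166 and 137 against 213 and 242.

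Aminoacyl-tRNA synthetases had a median of 0.38 over 21 genes, -0.04 in M25 minus M26 and 0.74 in M116 minus M73. Mars, the methionyl-tRNA synthetase, lay at 51.2 and 30.4 normalized CPM against 12.6 and 9.01, and without the 2 wells at 29.2 in M25. Lars lay at 72.5 and 79.2 against 44.4 and 38.4, and Kars at 90.9 and 82.9 against 98.8 and 221. Ribosome biogenesis had a median of 0.38 over 28 genes, with 9 above (32.1%, against 24.4% of all genes) and 2 below both controls (7.14%, against 14.7%), and 6 stayed above with 1 cell left out (21.4%, against 13.2%). The 3 with the smallest unadjusted p among those without overlap were rare. Polr1b lay at 4.29 and 5.96 normalized CPM against 0.541 and 0, Rrp12 at 8.77 and 4.69 against 1.51 and 1.16, and Gar1 at 1.13 and 1.16 against 3.84 and 5.52.

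The integrated stress response, in which phosphorylation of eIF2alpha lowers general translation and lets ATF4 turn on genes of amino acid supply, had a median of 0.42 over 31 genes. Both bright mice lay above both controls in 13 genes (41.9%, against 24.4% of all genes) and below both in 4 (12.9%, near the 14.7% of all genes). With 1 cell left out 8 stayed above (25.8%, against 13.2%) and 2 stayed below (6.45%, against 4.33%). None of the 4 lower genes is named in this paragraph, so the named genes do not give the spread of the list. Atf3, a stress transcription factor, lay at 34.8 and 214 normalized CPM in bright CMs against 9.24 and 12.2 in control CMs (log2 fold change 3.55, standard error 0.89, adjusted p = 0.66, edgeR). At 100000 reads, 61 of 72 bright CMs and 7 of 28 control CMs had an Atf3 read, and without thinning 70 of 76 and 11 of 28 had one. Psat1, an enzyme of serine synthesis, held 123 and 328 counts in bright CMs and 1 count in control CMs, a CPM ratio of 180 with a counting interval of 32.2 to 7144, but these came from 10 bright cells, of which 1 held 68.3% of the counts of M25. Sesn2 and Phgdh had no count in control CMs and were at least 26.9-fold and 21.1-fold higher in bright CMs against a floor of 3 counts over the group, from 6 and 3 bright cells. Eif4ebp1, the translation repressor 4E-BP1, which binds eIF4E, was broad, in 74 of 76 bright CMs, at 238 and 199 normalized CPM against 89.4 and 115. Atf4 itself lay at 79.6 and 103 normalized CPM against 112 and 99.4. Atf3 is also an immediate-early gene. The 22 tested immediate-early and dissociation genes had a median of 1.14, with 9 above (40.9%, against 24.4% of all genes) and 1 below both controls (4.55%, against 14.7%). With 1 cell left out 4 stayed above (18.2%, against 13.2%), and their part in the stress genes was not tested.

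Among secreted ligands 58 of 123 genes in the table had enough counts to be tested. The median was 0.17, with 20 genes above (34.5%, against 24.4% of all genes) and 9 below both controls (15.5%, near the 14.7% of all genes). Nppa, the ligand with the smallest unadjusted p, lay at 373 and 192 normalized CPM in bright CMs against 19.5 and 46.5 in control CMs (log2 fold change 3.11, standard error 0.58, adjusted p = 0.66, edgeR), and Nppb at 989 and 578 against 405 and 146 (log2 fold change 1.51, standard error 0.54, adjusted p = 0.66, edgeR). The 2 peptides differed among cells. Nppa was found in 40 of 76 bright CMs, with 38.3% of the counts of M25 and 28.9% of those of M116 in 1 cell each, and at 100000 reads in 28 of 72 bright CMs (38.9%) and 9 of 28 control CMs (32.1%), and without thinning in 13 of 28 control CMs. The atrial CM markers, of which Nppa is one, summed to 430 and 254 CPM in bright CMs against 41.3 and 55.4 CPM in control CMs, with Sln and Bmp10 at 0 in every sum. Nppb was found in 72 of 76 bright and 27 of 28 control CMs. Nppa shares 61.5% of its exonic bases with an antisense gene, Gm13054, which held at most 10 counts in a sum. Angptl4, described with the lipid genes, was found in 59 of 76 bright CMs and 7 of 28 control CMs, with at most 12.5% of the counts of a bright mouse in 1 cell.

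Other ligands rested on few cells. Gdf15, a stress cytokine of the TGF-beta family, held 110 and 200 counts in bright CMs from 6 cells, all of those of M25 from 1 cell, against 1 count in control CMs, a CPM ratio of 124 with a counting interval of 22.1 to 4916. Inhba, the activin A subunit, held 142 and 149 counts from 6 cells, 98.6% of those of M25 from 1, against 1 count, a ratio of 116.5 (20.7 to 4615). Fgf9, a growth factor, was spread over 27 of 76 bright CMs, at 17.7 and 12.1 normalized CPM against 1.68 and 2.03. Vegfa, which drives growth of vessels, lay at 34.6 and 33.4 normalized CPM in bright CMs against 126 and 67.1 in control CMs (log2 fold change -1.51, standard error 0.46, adjusted p = 0.66, edgeR) and was broad, in 71 of 76 bright and 28 of 28 control CMs.

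Secreted modulators and inhibitors had a median of 0.38 over 43 genes, with 12 above (27.9%, near the 24.4% of all genes) and 3 below both controls (6.98%, against 14.7%), and it moved with the 2 wells of M25 low in CM markers. Without them the median was 0.07, below that of all genes in that fit, 0.10, and without the wells high in fibroblast markers as well it was -0.02. Ltbp3, which binds latent TGF-beta, lay at 114 and 10.7 normalized CPM in bright CMs against 2.49 and 4.07, with 93.5% of the counts of M25 in 1 cell, and at 7.90 in M25 without the 2 wells. Serpine2, a protease inhibitor, lay at 37.9 and 12.6 against 1.08 and 0, and at 4.13 in M25 without them. Igfbp6, an IGF-binding protein, had 720 and 170 counts in bright CMs from 1 cell in each mouse and none in control CMs, at least 119-fold higher against a floor of 3 counts over the group, and it was no longer tested without the 2 wells. The fibroblast markers moved with these genes: 9 of 10 were tested, all 9 had a log2 fold change above 0, and their median was 3.67, and 1.46 without the 2 wells. Their part in these values was not tested. Adamts1, a matrix protease, lay at 26.5 and 81.9 normalized CPM against 12.3 and 13.4, and at 28.1 in M25 without the 2 wells, and was found in 56 of 76 bright CMs and 7 of 28 control CMs.

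**Figure D5:**
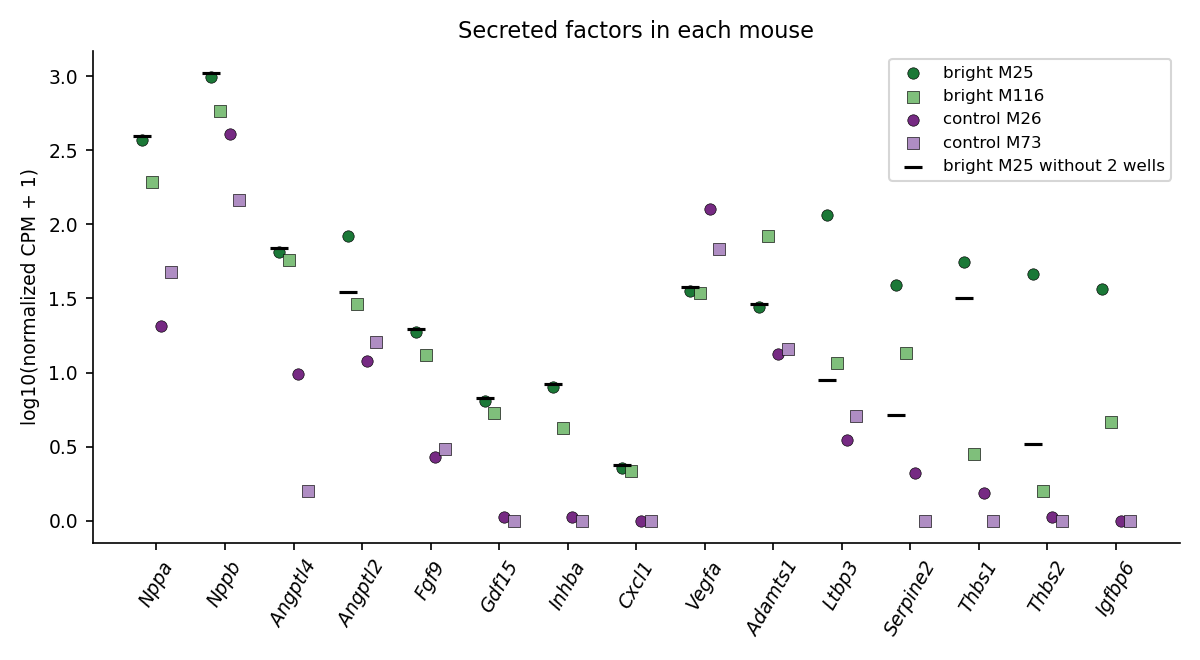
Normalized CPM (y axis, log10 of the value + 1) of 15 secreted factors (x axis) in each mouse, with black dashes for bright M25 without the 2 wells low in CM markers (Igfbp6 was not tested there). Nppa, Nppb and Angptl4 keep their level without these wells, while Ltbp3 goes from 114 to 7.90 and Serpine2 from 37.9 to 4.13.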

How the data were processed

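Single CMs were picked by hand and sequenced with SMART-seq2, which carries no molecular identifiers, so all intervals cover counting error only. Per the study, the authors aligned reads with STAR to the mouse genome extended by the human BAG3 and eGFP sequences and deposited raw gene counts per cell; genome build, annotation release and the strand setting of the counting are not given in the sources used here. The table held 55538 features in 234 cells, and 280 features carried a repeated symbol.

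Cells with at least 1000 genes detected were summed by mouse, since cells of a mouse are not replicates. Genes were kept with filterByExpr and tested with edgeR 4.0.16 in R 4.3.3 (quasi-likelihood test, TMM factors between 0.842 and 1.15, Benjamini-Hochberg adjustment), on the 4 sums of 4096122 to 40502883 counts. DESeq2 1.42.0 and limma 3.58.1 served alternatives, the latter on mean CPM per mouse with every cell weighted equally. The other alternatives were the minimum of genes per cell, normalization, the filter, plate series as a block, the dim sums in the fit, each mouse left out, and, chosen after seeing the data, the fits without doubtful wells and levels without 1 cell. Cells were picked singly, and doublets were not called. Some kept wells held CM and fibroblast markers together, such as 106032 and 4480 CPM in 1 of bright M25 and 65996 and 2258 CPM in 1 of control M26. Whether these wells held more than 1 cell was not tested. The fit was also run on simulated counts. Their variation between mice was fixed and not estimated from these sums, so that run does not show how often real differences are found or missed here.

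Members and gene lists were chosen with earlier results of these data known. The text names both members of each isoform pair, all genes past the threshold (up to 10 in each direction by size of change), in each list up to 3 tested genes with the smallest unadjusted p among those whose groups do not overlap, and the 5 leading genes in each direction with a mean of at least 10 normalized CPM. Named outside this rule, after their values were seen, were Actn1, Adamts1, Atf4, Bag3, Csrp3, Des, Eif4ebp1, Enah, Esrra, Fgf9, Gapdh, Igf2bp3, Lrtm1, Nppb, Phgdh, Postn, Ppara, Sesn2, Synpo2l, Tnnt1, Tnnt2, Tpm1, Ttn, Vegfa, Xirp2, Mhrt, Gm13054, Gm44502, Gm45233 and Mir7051. Overlaps of exons and shared stretches of 31 bases were computed on GENCODE vM21, which may differ from the authors' annotation.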

Additional observations from a re-analysis of the deposited data

Results flagged for a closer look

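The dim CMs of the same homozygous mice and the CMs labelled bright and dim of 1 heterozygous mouse, M72, entered no comparison above. In their 4 sums, 5 of the leading features lay above both control mice in every sum. The lowest of the 4 values was 7.45 CPM for BAG-eGFP and 10.7 CPM for hBAG, both in the dim CMs of M25, where no control sum exceeded 0.488 CPM. In M72 the labels ran against the transgene, since the sum labelled bright held 62.2 CPM of BAG-eGFP and 105 CPM of hBAG and the sum labelled dim 208 and 251.2 CPM. Tnni1 was lowest in the M72 sum labelled bright, at 24.1 CPM, against 12.4 and 2.69 CPM in control M26 and M73. Ankrd1 was also lowest there, at 308 CPM, against 183 and 195 CPM in the controls. Gm13394 was lowest in the M72 sum labelled dim, at 53.7 CPM, against 0.358 and 0.244 CPM. These differences were not tested.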

How the results depend on the processing

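The 2 genes past the threshold (2 higher, 0 lower) were also 2 with all cells summed, with at least 3000 genes per cell, on library size, with DESeq2 size factors in edgeR and without the wells low in CM or high in fibroblast markers. With every cell weighted equally 3 passed, as without the 2 wells low in CM markers. DESeq2 passed 94 genes (66 higher, 28 lower), the fit with no filter 163 (103 higher, 60 lower), the plate block 7 (5 higher, 2 lower), that block without the 2 wells 13 (9 higher, 4 lower), and the fit with the dim sums 0, where 1007 genes had an unadjusted p under 0.05. Leaving out 1 mouse gave between 0 and 41 genes, between 0 and 39 higher and between 0 and 5 lower. There were 15 without M25, 41 without M116, 0 without M26 (3884 at an unadjusted p under 0.05) and 3 without M73, and the lone mouse left in a group is then assumed to vary like the other group. The median isoform pair difference of 1.09 lay between 1.02 and 1.09 under the alternatives on cells and between 0.618 and 1.44 without 1 mouse; scaling, filter and block cannot move it. Of 16 pairs, 5 turned sign under at least 1 alternative, Ckb to Ckm going from 0.61 to -0.02 without the 2 wells. Of 91 named genes, 13 turned sign and 23 passed the threshold under at least 1 of 16 alternatives. The causes were not tested. No paired analysis was possible because the labels tie no bright mouse to a control mouse by number or litter. The plate block sets M25 beside M26 and M116 beside M73, and gave the 7 and 13 genes above. Of 74 named genes without overlap, 60 stayed so with any 1 cell left out. Over all genes tested, 1605 of 2974 higher and 528 of 1791 lower genes without overlap stayed so. Many of the named genes were chosen for not overlapping and for a small p, so the 2 rates cannot be compared. With 2 mice a group and 8 cells in M73, large differences can be missed as well as small ones. In the edgeR fit of the 4 sums, log2 fold changes of 8.25 for Gm13394 and 4.81 for Tnni1 missed the threshold. The smallest difference that could be detected was not worked out.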

Other observations

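Of the leading genes with lower values in bright CMs, 5 also lay below both control mice in all 4 sums of dim homozygous and of heterozygous CMs. Ppargc1a lay at 314 and 355 CPM in the dim CMs of M25 and M116 and at 424 and 390 CPM in the M72 sums labelled bright and dim, of which the one labelled dim held more transgene, against 864 and 859 CPM in control M26 and M73. Rpl3l lay between 59.0 and 66.6 CPM in these 4 sums, against 26.05 and 31.6 CPM in homozygous bright CMs and 110 and 127 CPM in control CMs. Mt1 lay between 129 and 327 CPM, against 819 and 1138 CPM in control CMs. Slc38a3 and Gm15543 were the remaining 2. These 5 genes were chosen for low values against the same 2 control mice, so their place below these controls was partly fixed by that choice. The share of all genes below both controls in these sums was not counted. The dim sums of M25 and M116 come from the same hearts as the bright sums, and M72 is 1 mouse, so none of these values was tested.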
